A study of Homo sapiens with 8 samples.

Results

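Semaphorins, plexins and neuropilins are the ligands, signalling receptors and co-receptors of one guidance system, and their RNA was compared here between untreated and doxycycline (DOX)-treated medulloblastoma cells. The members are the protein-coding genes of GENCODE with the symbols SEMA3A to SEMA7A, PLXNA1 to PLXND1, NRP1 and NRP2. There are 31 of them among the 60668 genes of the count files, namely 20 semaphorins, 9 plexins and 2 neuropilins, and all 31 were found by identifier.

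The cells are D283 MED, an established line from a MYC-driven medulloblastoma, a tumour of the cerebellum, used by the study as a model of its Group 3. The study adds that the line is now regarded as lying between Group 3 and Group 4. All cells of both groups carried a lentiviral transgene for Flag-tagged OMOMYC under a DOX-inducible promoter (D283-OMO). OMOMYC is a mini-protein made from MYC that pairs with MYC and its partners and acts as a dominant negative. The OMO group holds 4 untreated libraries and the OMO+DOX group holds 4 libraries of cells kept in DOX for 72 h. The study describes them as independent biological replicates of one transduced line, so they measure the spread within that line. DOX-treated cells without the transgene are not among the samples analysed here, and an effect of DOX itself cannot be told apart from one of OMOMYC.

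In the nervous system, semaphorins steer growing axons and migrating neurons, and outside it they act on blood vessels, bone and immune cells. Class 3 semaphorins are secreted and mostly bind a neuropilin, which holds the ligand and passes the signal to a plexin of class A or to plexin D1. Semaphorins of classes 4 to 7 are bound to the cell surface and mostly bind plexins directly, and SEMA7A also binds integrins containing the β1 chain. Plexins carry a GTPase-activating domain for Rap and R-Ras proteins in the cytoplasm and reshape actin and microtubules, while neuropilins are also co-receptors for vascular endothelial growth factors (VEGFs).

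The libraries were close to each other within groups. Total counts were between 46592947 and 54020506 in OMO and between 38390696 and 49249167 in OMO+DOX. Across genes, which are not independent replicates, Pearson's r of log2 CPM (counts normalized to library size) was at least 0.989 within a group and at most 0.882 between groups. A gene with at most 3 counts in a library, or at most 0.0748 CPM, was treated as at the floor, which covers counting error only. Of 7 tested marker genes of this tumour type and its photoreceptor-like programme, 6 were lower with DOX, including OTX2 at 1049 against 510 CPM. At an adjusted p below 0.05, 38.1% of all genes tested were lower. MYC RNA was slightly higher with overlapping groups (939 against 1123 CPM, log2FC 0.26), a level that may include transgene reads, which match MYC. Markers of other cell types were read as well. The summed level of 5 microglia markers stayed between 0.677 and 1.05 CPM in all libraries, and PECAM1, TEK and EMCN of the endothelium had means of at most 0.215 CPM. CDH5, an endothelial cadherin, had no count in OMO and 1.85 ± 0.237 CPM (SD, n = 4) with DOX, and VWF went the other way (3.26 to 1.24 CPM). The summed level of 5 fibroblast markers was between 35.1 and 37.6 CPM in OMO and between 55.4 and 68.7 CPM with DOX. COL1A1 and PDGFRB made up nearly the whole of it. PDGFRB rose (13.5 to 40.4 CPM), and COL1A1 was not called (22.1 and 23.4 CPM). The means of COL1A2, DCN and LUM went the other way, from at most 0.601 CPM in OMO to at most 0.0173 CPM with DOX. MOG and MAG of oligodendrocytes had no count in any library, and MBP had means of 0.097 CPM in OMO and 0.202 CPM with DOX. The part of these changes in the results given here was not tested. In bulk RNA, fewer cells expressing a gene and less RNA per cell cannot be told apart.

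The upstream sequences were read for CACGTG, the E-box that MYC and its partner MAX bind, which reads the same on both strands. RefSeq gave 48 start sites for 27 of the members on GRCh38.p14, and no window for SEMA3A, SEMA6A, SEMA6B and NRP1. Within 250 bases before a start site, CACGTG was present at 1 start site each of SEMA3E, SEMA4D and SEMA6D. Per gene, that is 11.1% of the members with a window, against 7.73% of the 27305 genes in the table. Per start site, it is 3 of 48, against 6.34% of the 35116 start sites in the table. A gene with more start sites has more windows that can hold the motif, so the share per gene depends on their number. The 60 bases that end at the start sites with the motif are shown with the E-box in capitals. The outermost windows of SEMA7A and SEMA5B follow because these members had large changes in opposite directions and no E-box in 250 bases.
SEMA6D (chr15:47184029-47184088, plus strand, E-box starting 28 bases before the start site): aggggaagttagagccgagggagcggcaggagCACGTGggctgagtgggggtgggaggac
SEMA4D (chr9:89495657-89495716, minus strand, E-box starting 50 bases before the start site): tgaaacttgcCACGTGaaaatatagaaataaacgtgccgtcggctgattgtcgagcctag
SEMA3E (chr7:83649140-83649199, minus strand, E-box starting 45 bases before the start site): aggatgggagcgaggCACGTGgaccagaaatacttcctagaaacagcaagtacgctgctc
SEMA7A (chr15:74433959-74434018, minus strand, no E-box): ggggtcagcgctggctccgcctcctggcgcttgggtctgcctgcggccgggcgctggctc
SEMA5B (chr3:123028606-123028665, minus strand, no E-box): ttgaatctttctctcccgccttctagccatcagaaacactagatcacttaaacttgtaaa

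The letters describe these windows only, and binding was not measured in these libraries. The RNA of the 3 genes with the motif did not share a direction. SEMA6D fell, SEMA4D rose slightly and SEMA3E was not expressed above the floor, as given with their values.

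To find which members changed with DOX, edgeR's quasi-likelihood test was run on the 15222 genes that exceeded 1 CPM in 4 or more libraries, and p-values were adjusted by Benjamini-Hochberg over this whole set. The thresholds of the study's methods, an FDR below 0.001 and an absolute log2 fold change (log2FC) above 2, defined differential expression. Of the 31 members, 29 passed the filter on low counts. SEMA3E and SEMA5A did not, with at most 3 counts and 1 count in any library. Differential expression was called for 5 members. SEMA7A, SEMA3D and NRP2 rose, and SEMA5B and PLXNA4 fell. That is 5 of 29, while 7.12% of all genes tested were differentially expressed. By direction, 3 of 29 members were higher and 2 were lower, while 4.38% of all genes were higher and 2.75% were lower. SEMA3D, SEMA5B and PLXNA4 passed the filter only through the group where each was higher. With more than 1 CPM asked of more than 4 libraries, they were not tested. Of the members, 2 were then differentially expressed, SEMA7A and NRP2, and 562 genes in all.

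At an adjusted p below 0.05 without a fold threshold, 17 members rose and 10 fell, while 38.5% of all genes rose and 38.1% fell. With a log2FC beyond 1 as well, 8 members rose and 6 fell, while 11.0% of all genes rose and 9.81% fell. The 4 DOX libraries did not overlap the 4 untreated ones for 26 of 29 members and for 71.7% of all genes tested. The median absolute log2FC was 0.98 over the 29 members and 0.43 over all genes tested, and the median log2FC was 0.28 against 0.01. These are descriptions of the members beside all genes, without a test of the set.

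**Figure D1:**
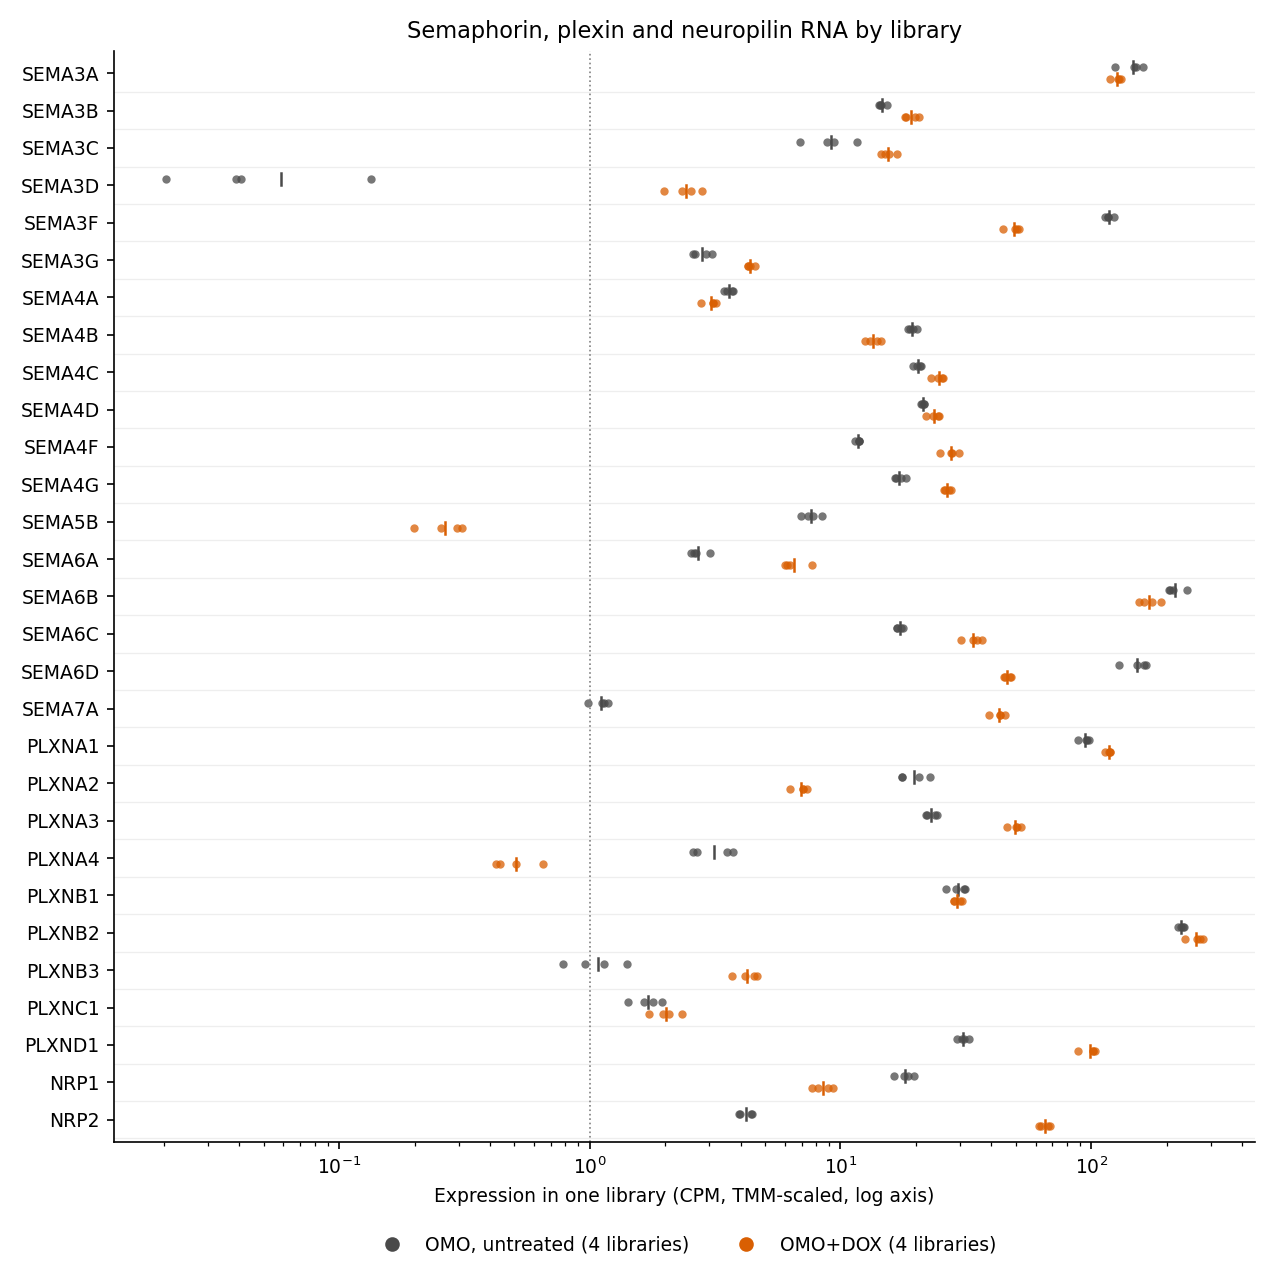
CPM in each of the 8 libraries (points, log axis) and group means (vertical ticks) for the 29 tested members. The dotted line marks 1 CPM. The 2 groups lie far apart for SEMA3D, SEMA5B, SEMA7A, PLXNA4 and NRP2 and overlap for SEMA3A, PLXNB1 and PLXNC1.

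The secreted class 3 semaphorins are considered first. Of 7 genes, 6 were tested, 4 rose and 2 fell, while 38.5% of all genes tested rose and 38.1% fell. SEMA3F, a secreted ligand that prefers NRP2, had the highest level of the class in untreated cells per kilobase of its longest transcript. It is encoded on chromosome 3 (ENSG00000001617.12, GRCh38 chr3:50155045-50189075). SEMA3F gave 114, 117, 124 and 117 CPM in OMO and 50.8, 44.6, 49.8 and 51.6 CPM with DOX. All DOX libraries lay below all untreated ones, and the log2FC was -1.26 (SE 0.05, adjusted p = 1.52e-09, edgeR). SEMA3F-AS1, on the opposite strand, shares 110 of the 4826 exonic bases of SEMA3F and rose (4.31 to 6.28 CPM, log2FC 0.54).

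SEMA3D, which is known for guiding neural and cardiac cells, showed the reverse course from near absence. SEMA3D (ENSG00000153993.13, chr7:84995553-85186855) had 1, 2, 2 and 6 counts in the OMO libraries, or 0.0204, 0.0387, 0.0407 and 0.134 CPM. With DOX it stood at 2.54, 2.79, 1.97 and 2.33 CPM, from 101 to 129 counts. The summed counts, scaled by library size, were 42.3-fold higher with DOX (exact 95% interval 23.4 to 85.3, counting error only). The fitted log2FC was 5.34 (SE 0.30, adjusted p = 1.31e-08, edgeR), which rests on 11 counts in untreated cells. SEMA3D was below 1 CPM in every OMO library and passed the filter only through the DOX libraries.

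SEMA3A, the founding collapsing factor of growth cones, remained high in both groups. SEMA3A gave 160, 149, 125 and 151 CPM in OMO and 130, 132, 128 and 119 CPM with DOX. The groups overlapped, and the log2FC was -0.20 (SE 0.07, adjusted p = 0.0238). This small difference passed no longer without OMO replicate 1 (adjusted p = 0.0551), without OMO+DOX replicate 4 (adjusted p = 0.0694) or with library size as the only scaling (log2FC -0.08, adjusted p = 0.4).

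The other class 3 genes rose modestly. SEMA3C, which acts in heart and vessel development, went from 9.19 ± 1.98 to 15.5 ± 0.971 CPM (SD, n = 4, log2FC 0.75). SEMA3G, an NRP2 ligand made by vessels, went from 2.79 ± 0.233 to 4.36 ± 0.151 CPM (log2FC 0.64). SEMA3B, often described as a tumour suppressor on the short arm of chromosome 3, went from 14.6 ± 0.481 to 19.1 ± 1.23 CPM (log2FC 0.39). SEMA3B and SEMA3F lie 78.5 kb apart on the same strand and moved in opposite directions. On chromosome 7, SEMA3C, SEMA3E, SEMA3A and SEMA3D follow each other on the minus strand, with 503 kb between SEMA3A and SEMA3D. Their log2FC in that order were 0.75, not tested, -0.20 and 5.34.

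The membrane-bound semaphorins of classes 4 to 7 comprise 13 genes, of which 12 were tested, 7 rose and 5 fell. Among all genes tested, 38.5% rose and 38.1% fell. SEMA4F, which is found at neuronal synapses and on glia, had the only log2FC beyond 1 of the 6 class 4 genes. SEMA4F gave 11.4, 11.9, 11.9 and 11.9 CPM in OMO and 27.5, 24.9, 29.6 and 27.8 CPM with DOX. The groups were well apart (log2FC 1.23, SE 0.06, adjusted p = 3.63e-09).

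Among the other class 4 genes, SEMA4G rose from 17.2 ± 0.777 to 26.7 ± 0.783 CPM (log2FC 0.64). MRPL43 on the opposite strand shares 1170 of the 5253 exonic bases of SEMA4G, the counts of SEMA4G were not whole in all 8 libraries, and its change is uncertain for that reason. SEMA4C, a ligand of plexin B2, rose from 20.3 ± 0.68 to 24.6 ± 1.29 CPM (log2FC 0.28). SEMA4B, a less studied member of the class, fell from 19.3 ± 0.698 to 13.5 ± 0.88 CPM (log2FC -0.51). SEMA4D, the CD100 ligand of plexin B1, was 21.3 ± 0.289 CPM in OMO and 23.6 ± 1.3 CPM with DOX (log2FC 0.15, adjusted p = 0.0187, edgeR). Its adjusted p was between 0.0523 and 0.0654 without OMO replicate 1 or 2 or OMO+DOX replicate 1 or 4, and 0.134 with no filter on low counts. SEMA4A, known from immune cells and the retina, was 3.59 ± 0.142 and 3.04 ± 0.187 CPM (log2FC -0.24, adjusted p = 0.0262). Without OMO replicate 2 or OMO+DOX replicate 2 its adjusted p was 0.0609 or 0.0621, and it was 0.0527 with DESeq2, 0.0588 with no filter, 0.0567 with the replicate number as a block and 0.244 with library size as the only scaling.

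SEMA5B and SEMA5A carry thrombospondin repeats outside the cell, and SEMA5B acts as a repellent for neurites in retina and brain. SEMA5B (ENSG00000082684.16, chr3:122909082-123028605) showed the largest fall of all members. It gave 7.77, 7.41, 6.95 and 8.45 CPM in OMO and 0.296, 0.199, 0.254 and 0.308 CPM with DOX, from 8 to 15 counts. The mean fell by 96.5%, and the log2FC was -4.83 (SE 0.14, adjusted p = 4.42e-11). SEMA5B was below 1 CPM in every DOX library and passed the filter only through the OMO libraries. SEMA5A had no count in OMO and at most 1 count with DOX, so class 5 RNA came almost entirely from SEMA5B.

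Class 6 semaphorins signal through plexins of class A and have a cytoplasmic tail of their own. SEMA6D, known from heart and visual pathway development, fell. SEMA6D (ENSG00000137872.16, chr15:47184101-47774223) gave 165, 153, 130 and 163 CPM in OMO and 47.9, 47.2, 45.2 and 45 CPM with DOX. Its lowest untreated library stood well above its highest DOX library, and the log2FC was -1.72 (SE 0.07, adjusted p = 1.4e-09).

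SEMA6B, a ligand of plexin A4, had the highest semaphorin level per kb of the longest transcript and a small change. SEMA6B gave 207, 213, 241 and 205 CPM in OMO and 175, 156, 163 and 189 CPM with DOX (log2FC -0.34, SE 0.07, adjusted p = 0.000992). The groups did not overlap, although DOX replicate 4 came close to the untreated level.

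SEMA6A and SEMA6C moved the other way. SEMA6A, which guides granule cell migration in the cerebellum, gave 3.02, 2.61, 2.54 and 2.64 CPM in OMO and 7.67, 6.28, 5.98 and 6.12 CPM with DOX. The log2FC of SEMA6A was 1.27 (SE 0.11, adjusted p = 4.92e-07). SEMA6A had counts that were not whole in all 8 libraries, and it shares 268 exonic bases with SEMA6A-AS1, which was at 0.47 and 0.71 CPM. SEMA6C went from 17.2 ± 0.447 to 33.8 ± 2.73 CPM (log2FC 0.98, adjusted p = 3.95e-08).

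SEMA7A, anchored to the membrane by a lipid and the only member of its class, showed the strongest rise among members with more than 50 counts in every library. SEMA7A (ENSG00000138623.10, chr15:74409289-74433958) gave 1.14, 0.987, 1.12 and 1.19 CPM in OMO, from 51 to 56 counts. With DOX it gave 43.3, 39.1, 45.2 and 43.4 CPM. The spread within either group was small beside the difference, and the mean was 38.5 times as high (log2FC 5.27, SE 0.08, adjusted p = 3.41e-13). SEMA7A and SEMA6D lie on the same chromosome, 26635 kb apart, and went in opposite directions.

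**Figure D2:**
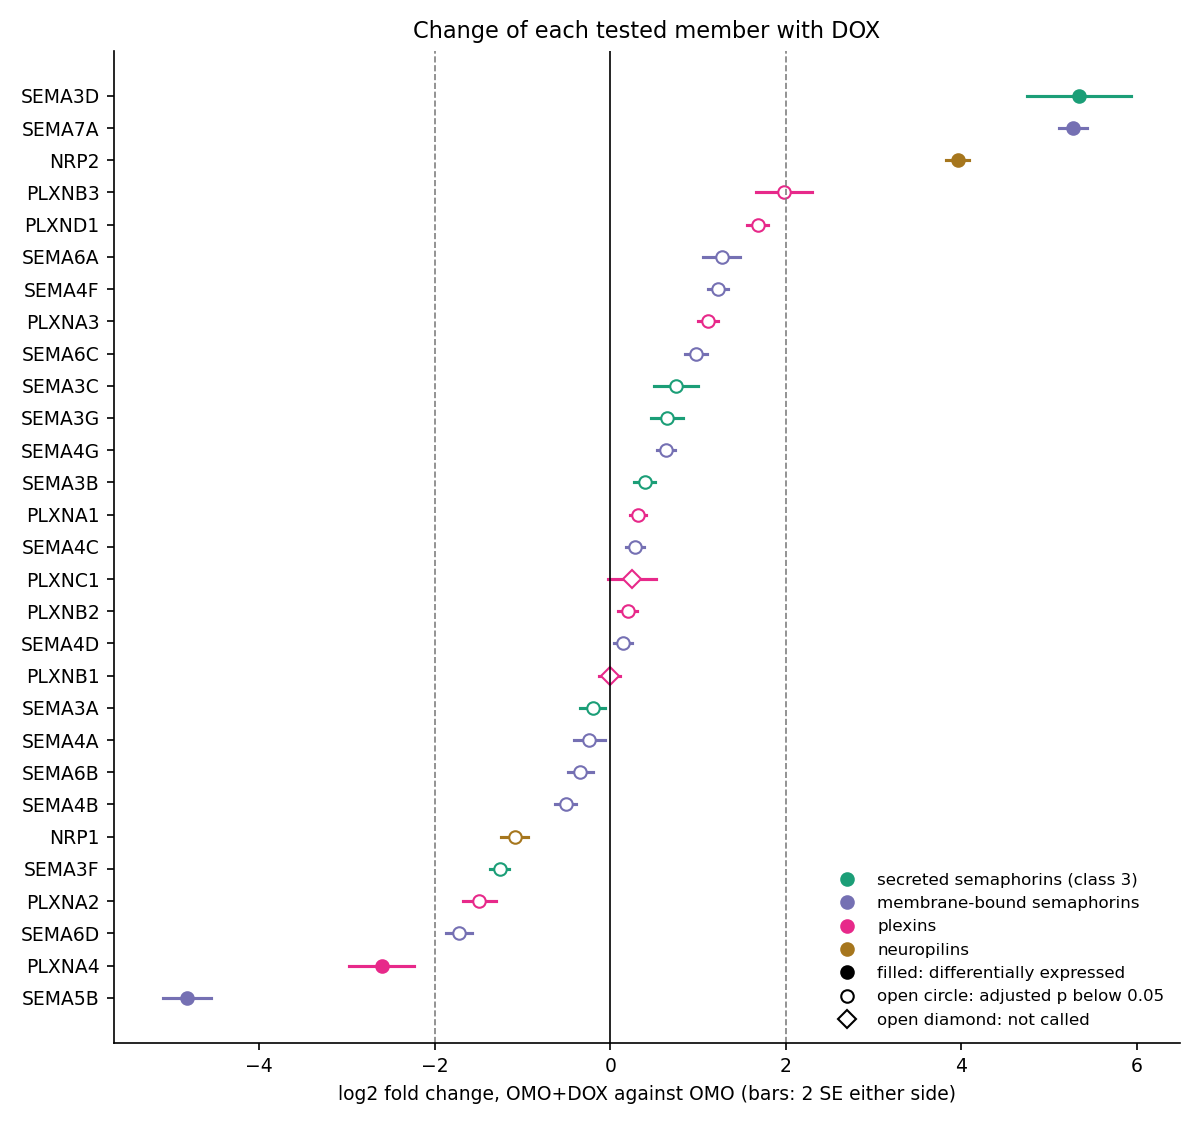
log2FC of OMO+DOX against OMO for the 29 tested members, with bars of 2 SE either side, and dashed lines at -2 and 2. Filled points are the 5 differentially expressed members, from SEMA5B at -4.83 to SEMA3D at 5.34, open circles have an adjusted p below 0.05, and the open diamonds are PLXNC1 and PLXNB1.

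The plexins are the signalling receptors. Of 9 genes, 5 rose, 2 fell and 2 were not called, while 38.5% of all genes tested rose and 38.1% fell. The class A plexins, partners of neuropilins and receptors of class 6 semaphorins, split evenly between directions. PLXNA4, which serves SEMA3A and SEMA6A signals in sensory and sympathetic neurons, was differentially expressed. PLXNA4 (ENSG00000221866.9, chr7:132123332-132648688) gave 3.71, 2.59, 2.68 and 3.52 CPM in OMO and 0.651, 0.424, 0.508 and 0.44 CPM with DOX, from 17 to 33 counts. The groups were far apart, with a log2FC of -2.61 (SE 0.18, adjusted p = 1.05e-07). PLXNA4 was below 1 CPM in every DOX library and passed the filter only through the OMO libraries.

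PLXNA2, a receptor of SEMA6A in the cerebellum, fell as well. PLXNA2 gave 22.9, 17.6, 17.6 and 20.6 CPM in OMO and 7.12, 7.08, 7.37 and 6.3 CPM with DOX (log2FC -1.50, SE 0.09, adjusted p = 4.08e-08). The lowest untreated value was more than the highest DOX value for this gene. PLXNA3, a partner of NRP2 in the response to SEMA3F, rose. PLXNA3 gave 24.3, 22, 22.1 and 23.8 CPM in OMO and 52.5, 46.2, 50.5 and 50.1 CPM with DOX (log2FC 1.11, SE 0.06, adjusted p = 4.89e-09). PLXNA1, the highest of the class per kb of the longest transcript, went from 94.4 ± 4.18 to 117 ± 2.93 CPM (log2FC 0.31, adjusted p = 6.36e-05).

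The class B plexins bind semaphorins of class 4 and couple to RhoA through PDZ-RhoGEF and LARG. PLXNB2, which is needed by proliferating granule cell precursors of the cerebellum, had the highest plexin level per kb. PLXNB2 gave 222, 228, 232 and 234 CPM in OMO and 271, 236, 265 and 279 CPM with DOX. DOX replicate 2 lay close to the untreated libraries, and the log2FC was 0.20 (SE 0.05, adjusted p = 0.00561). PLXNB1 was 29.5 ± 2.29 CPM in OMO and 29.3 ± 1.17 CPM with DOX and did not pass (log2FC -0.01, 2 SE either side from -0.13 to 0.11, adjusted p = 0.898). Its sign changed with the scaling and with the library left out.

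PLXNB3, a receptor of SEMA5A, came closest to the fold threshold without passing it. PLXNB3 gave 1.14, 1.41, 0.955 and 0.784 CPM in OMO and 4.65, 3.69, 4.14 and 4.54 CPM with DOX (log2FC 1.98, SE 0.16, adjusted p = 3.5e-07). Its log2FC was 2.13 without OMO replicate 2 and 2.04 without OMO+DOX replicate 2, which made it differentially expressed. PLXNB3 shares 1432 of its 7007 exonic bases with SRPK3 on the same strand, and its counts were not whole in all 8 libraries. SRPK3 itself stood at 0.383 and 1.08 CPM, and the division of reads between both genes is uncertain.

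The remaining plexins have one gene per class. PLXND1, the receptor of SEMA3E in blood vessels, rose. PLXND1 (ENSG00000004399.12, chr3:129555175-129606818) gave 32.5, 30.5, 31.2 and 29.2 CPM in OMO and 102, 88.6, 103 and 101 CPM with DOX. All DOX libraries exceeded the untreated ones, with replicate 2 below the other DOX libraries (log2FC 1.68, SE 0.06, adjusted p = 2.92e-10). Its ligand SEMA3E was at the floor in both groups. PLXNC1, the plexin that binds SEMA7A, was 1.7 ± 0.22 CPM in OMO and 2.02 ± 0.26 CPM with DOX and did not pass (log2FC 0.25, 2 SE either side from -0.02 to 0.52, adjusted p = 0.114). With library size as the only scaling it had a log2FC of 0.37 and an adjusted p of 0.029. CEP83 shares 177 of the 9887 exonic bases of PLXNC1 on the opposite strand and was at 31 and 22.4 CPM.

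The neuropilins, co-receptors of class 3 semaphorins and of VEGFs, moved in opposite directions. NRP2 (ENSG00000118257.16, chr2:205681990-205798133) gave 3.94, 4.45, 3.98 and 4.41 CPM in OMO and 67.3, 68.8, 61.8 and 63 CPM with DOX. The mean of NRP2 was 15.5 times as high with DOX (log2FC 3.96, SE 0.06, adjusted p = 5.3e-13). NRP1 (ENSG00000099250.18, chr10:33177492-33336262) gave 19.6, 18.6, 16.3 and 18 CPM in OMO and 9.31, 8.92, 7.72 and 8.1 CPM with DOX. The mean of NRP1 fell by 53% (log2FC -1.09, SE 0.08, adjusted p = 1.22e-07), and neither gene had overlapping groups.

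Levels of different genes were set side by side only as CPM per kilobase (kb) of the longest annotated transcript. On that scale NRP1 was between 4.62 and 5.63 times the level of NRP2 in the untreated libraries. With DOX, NRP2 was between 6.38 and 7.07 times the level of NRP1. NRP2 thus made up 17% ± 1.3 (SD, n = 4) of the summed neuropilin level in OMO and 87.1% ± 0.486 with DOX. The sum of both rose from 3.71 ± 0.24 to 11.2 ± 0.62 CPM per kb. With the median transcript length in place of the longest, NRP1 and NRP2 stood at 7.23 and 3.92 CPM per kb in OMO and at 3.39 and 60.8 CPM per kb with DOX, in the same order within each group, and the share of NRP2 was 35.2% ± 2.14 and 94.7% ± 0.217.

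**Figure D3:**
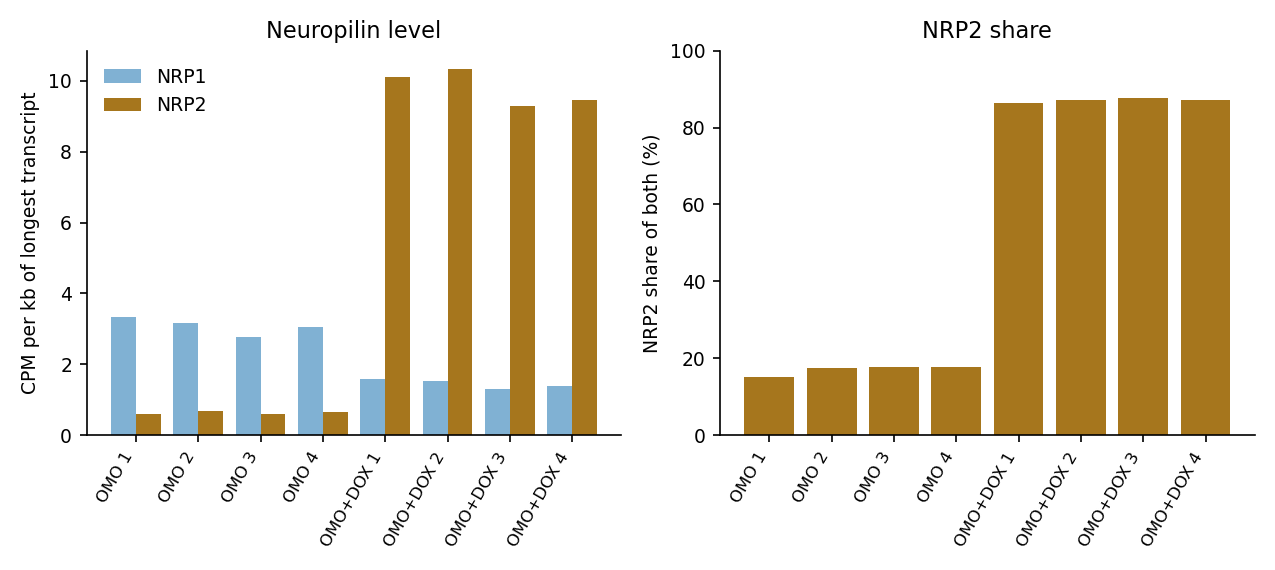
Left, NRP1 and NRP2 in each library in CPM per kb of the longest transcript. Right, the share of NRP2 in the sum of both in percent, which lies between 15.1% and 17.8% in the 4 OMO libraries and between 86.5% and 87.6% in the 4 OMO+DOX libraries.

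Over all members, the level per kb was dominated by few genes. In OMO the order began with SEMA6B (54.3 ± 4.27 CPM per kb, SD, n = 4), PLXNB2 (35.9 ± 0.83), SEMA3F (31 ± 1.12), SEMA6D (25 ± 2.68), SEMA3A (17.8 ± 1.85) and PLXNA1 (10.4 ± 0.461). The ranges of these neighbours over the libraries did not overlap. With DOX, SEMA6B (42.9 ± 3.7 CPM per kb) and PLXNB2 (41.2 ± 2.91) led with overlapping ranges. SEMA3A (15.5 ± 0.666), PLXND1 (13.9 ± 0.962), PLXNA1 (13 ± 0.324), SEMA3F (12.9 ± 0.83) and SEMA7A (12.7 ± 0.769) came next, and each of them overlapped with its neighbour in this order. SEMA7A had moved from rank 25 to rank 7 of 31 members, NRP2 from rank 22 to rank 8, and SEMA5B from rank 20 to rank 28.

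The order depends on the length used. With the median transcript length, SEMA3A led both groups (257 CPM per kb in OMO and 224 with DOX), and PLXNB2 was second. Fold changes of a single gene do not change with its length.

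The summed semaphorin level was 161 ± 1.13 CPM per kb in OMO and 135 ± 5.73 with DOX, all DOX libraries being lower. SEMA6B, SEMA3F, SEMA6D and SEMA3A made up 79.4% ± 0.425 of it in OMO and 58.6% ± 0.857 with DOX. The share of SEMA7A went from 0.203% ± 0.0149 to 9.41% ± 0.4, and the share of SEMA6B was 33.6% ± 2.53 and 31.8% ± 1.61. The summed plexin level was 59.1 ± 0.966 CPM per kb in OMO and 78.2 ± 4.13 with DOX. PLXNB2 gave 60.7% ± 1.48 of it in OMO and 52.6% ± 1.04 with DOX, while the share of PLXND1 went from 7.36% ± 0.414 to 17.8% ± 0.487. With the median transcript length, the share of SEMA7A was 0.0678% ± 0.00536 in OMO and 3.16% ± 0.168 with DOX, that of SEMA6B 15.8% ± 1.85 and 15% ± 1.21, and that of the 4 genes together 82.2% ± 0.279 and 68.1% ± 0.505. On that scale PLXNB2 gave 42.3% ± 1.63 and 31.9% ± 0.811 of the plexin sum and PLXND1 13.7% ± 0.706 and 28.8% ± 0.624. Each of these shares moved in the direction it had with the longest transcript. Sums and shares are descriptions without a test.

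**Figure D4:**
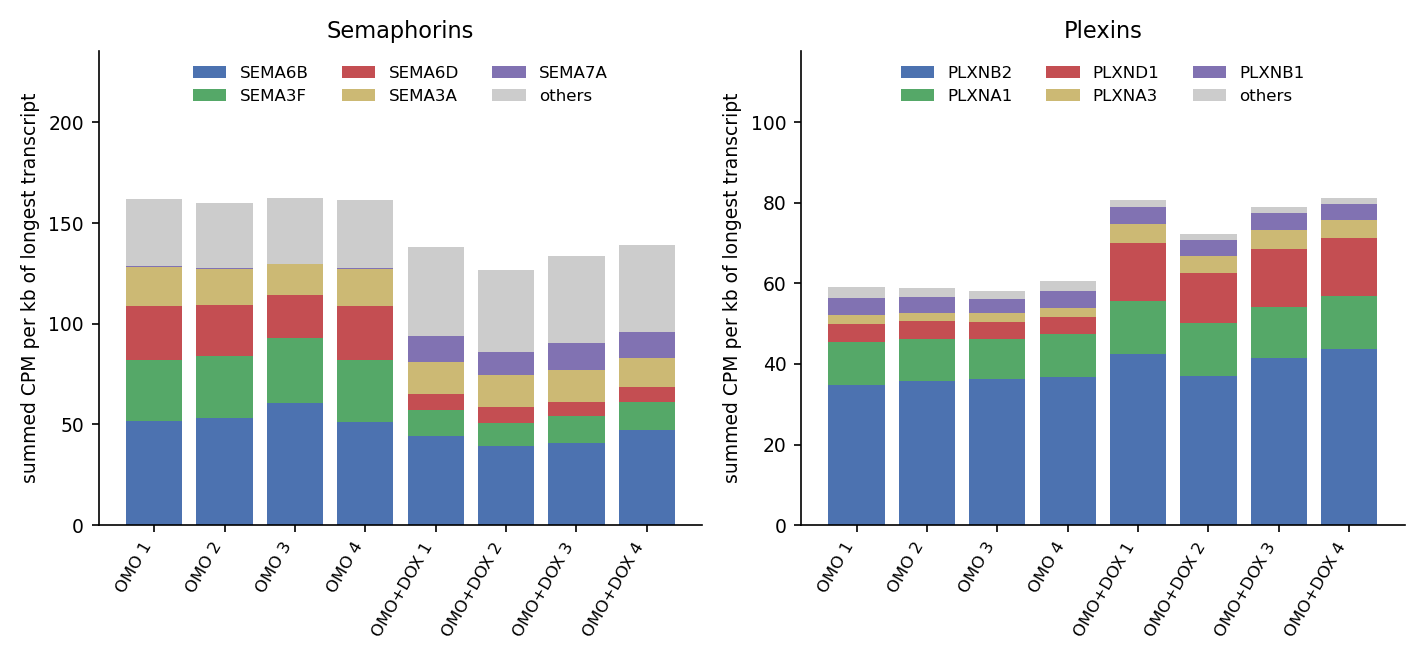
Stacked levels of semaphorins (left) and plexins (right) in CPM per kb of the longest transcript for each library. The semaphorin stacks lie between 160 and 162 in OMO and between 127 and 139 in OMO+DOX, where SEMA7A appears, and the plexin stacks lie between 58.2 and 60.5 in OMO and between 72.2 and 81.2 in OMO+DOX.

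A selection of known ligand and receptor pairs was read side by side, without a test of the pairs. The SEMA3F receptor pair NRP2 and PLXNA3 rose (log2FC 3.96 and 1.11) while SEMA3F fell (log2FC -1.26). For SEMA3A, NRP1 and PLXNA4 fell (log2FC -1.09 and -2.61) and PLXNA1 rose (log2FC 0.31). For SEMA6A, the ligand rose (log2FC 1.27) while its receptors PLXNA2 and PLXNA4 fell (log2FC -1.50 and -2.61). SEMA5B fell (log2FC -4.83) while PLXNA1 and PLXNA3, which bind it in the retina, rose. Other pairs moved together: SEMA6B and PLXNA4 both fell (log2FC -0.34 and -2.61), and SEMA4C and PLXNB2 both rose (log2FC 0.28 and 0.20). SEMA4D rose slightly (log2FC 0.15) while its receptor PLXNB1 was not called. For SEMA7A, PLXNC1 did not pass, and the integrin chains ITGA1 and ITGB1 are given next.

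Partner and downstream genes were read from 4 lists. Each list is read beside all genes tested, of which 38.5% rose and 38.1% fell at an adjusted p below 0.05. Of 14 receptor partners, 10 were tested, 5 rose, 3 fell and 2 were not called, with a median log2FC of 0.33. CHL1, an adhesion molecule that joins NRP1 in the response to SEMA3A, went from 0.103 ± 0.0437 to 4.41 ± 0.393 CPM (SD, n = 4, log2FC 5.38, adjusted p = 4.69e-10). The fold of CHL1 rests on few counts, from 2 to 7 in the OMO libraries. KDR, the main VEGF receptor that neuropilins assist, went from 0.348 ± 0.138 to 2.74 ± 0.238 CPM (log2FC 2.98). Both CHL1 and KDR were below 1 CPM in every OMO library and passed the filter only through the DOX libraries. ITGA1, the integrin chain that pairs with β1 to bind SEMA7A, went from 9.78 ± 1.26 to 68.8 ± 4.74 CPM (log2FC 2.81, adjusted p = 1.18e-10), and its partner chain ITGB1 from 272 ± 14.6 to 433 ± 11 CPM (log2FC 0.67). NRCAM, which joins NRP2 in the response to SEMA3F, went from 6.3 ± 0.573 to 14 ± 0.536 CPM (log2FC 1.15). FLT1, another VEGF receptor, fell from 12.4 ± 0.863 to 3.39 ± 0.492 CPM (log2FC -1.87). CNTN2 was lower in all DOX libraries (means 1.13 and 0.164 CPM) but did not pass the filter and was not tested.

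Of 5 VEGF ligands, 4 were tested, 3 rose and 1 was not called, with a median log2FC of 0.62. The ligand not called was VEGFA, at 181 ± 16.2 CPM in OMO and 185 ± 15.9 CPM with DOX (log2FC 0.03, adjusted p = 0.688, edgeR). VEGFB, named after its values were seen, was 28.4 ± 4.16 CPM in OMO and 33.2 ± 2.21 CPM with DOX with overlapping groups (log2FC 0.23, adjusted p = 0.0398, edgeR). The number of ligands called higher was 2 without OMO replicate 1, 2 or 4, without OMO+DOX replicate 1, 2 or 4, or with filterByExpr. It was also 2 with the filter on more than 4 libraries, which VEGFC does not pass, being above 1 CPM in the 4 DOX libraries only. VEGFC, the lymphatic growth factor that binds NRP2, went from 0.0815 ± 0.043 to 7.52 ± 0.319 CPM (log2FC 6.47, adjusted p = 3.41e-11). VEGFC had from 2 to 7 counts in the OMO libraries and passed the filter only through the DOX libraries, so its fold rests on few counts. PGF, a ligand of FLT1, went from 7.15 ± 1.18 to 14.4 ± 1.35 CPM (log2FC 1.01).

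Of 16 GTPases and regulators, 15 were tested, 8 rose, 4 fell and 3 were not called, with a median log2FC of 0.19. RND3 and RND1, small GTPases without GTPase activity that bind plexins, had a log2FC of 1.72 and 1.02. MRAS, a relative of R-Ras, had 1.22, and ARHGEF11, the PDZ-RhoGEF that docks on class B plexins, had 1.17. RND1 was low, at 0.766 ± 0.0876 CPM in OMO and 1.56 ± 0.197 CPM with DOX (SD, n = 4). It was below 1 CPM in every OMO library and passed the filter only through the DOX libraries. With more than 1 CPM asked of more than 4 libraries, 7 genes of this list were higher. The 4 that fell were RAC1 (114 to 74.1 CPM, log2FC -0.62), RHOA (593 to 415 CPM, log2FC -0.51), FARP1 (log2FC -0.38) and RND2 (log2FC -0.31).

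Of 21 cytosolic effectors, 20 were tested, 10 rose, 5 fell and 5 were not called, with a median log2FC of 0.13. The collapsin response mediators, which carry the SEMA3A signal to microtubules, went both ways. DPYSL3 fell from 1228 ± 43.6 to 210 ± 5.22 CPM (log2FC -2.55), and DPYSL5 rose from 6.56 ± 0.466 to 50.6 ± 3.17 CPM (log2FC 2.95). MICAL1, an enzyme that oxidises actin downstream of plexin A, went from 14.7 ± 0.496 to 29.9 ± 1.47 CPM (log2FC 1.03). Over all 15222 genes the median was 0.01, 38.5% rose and 38.1% fell.

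**Figure D5:**
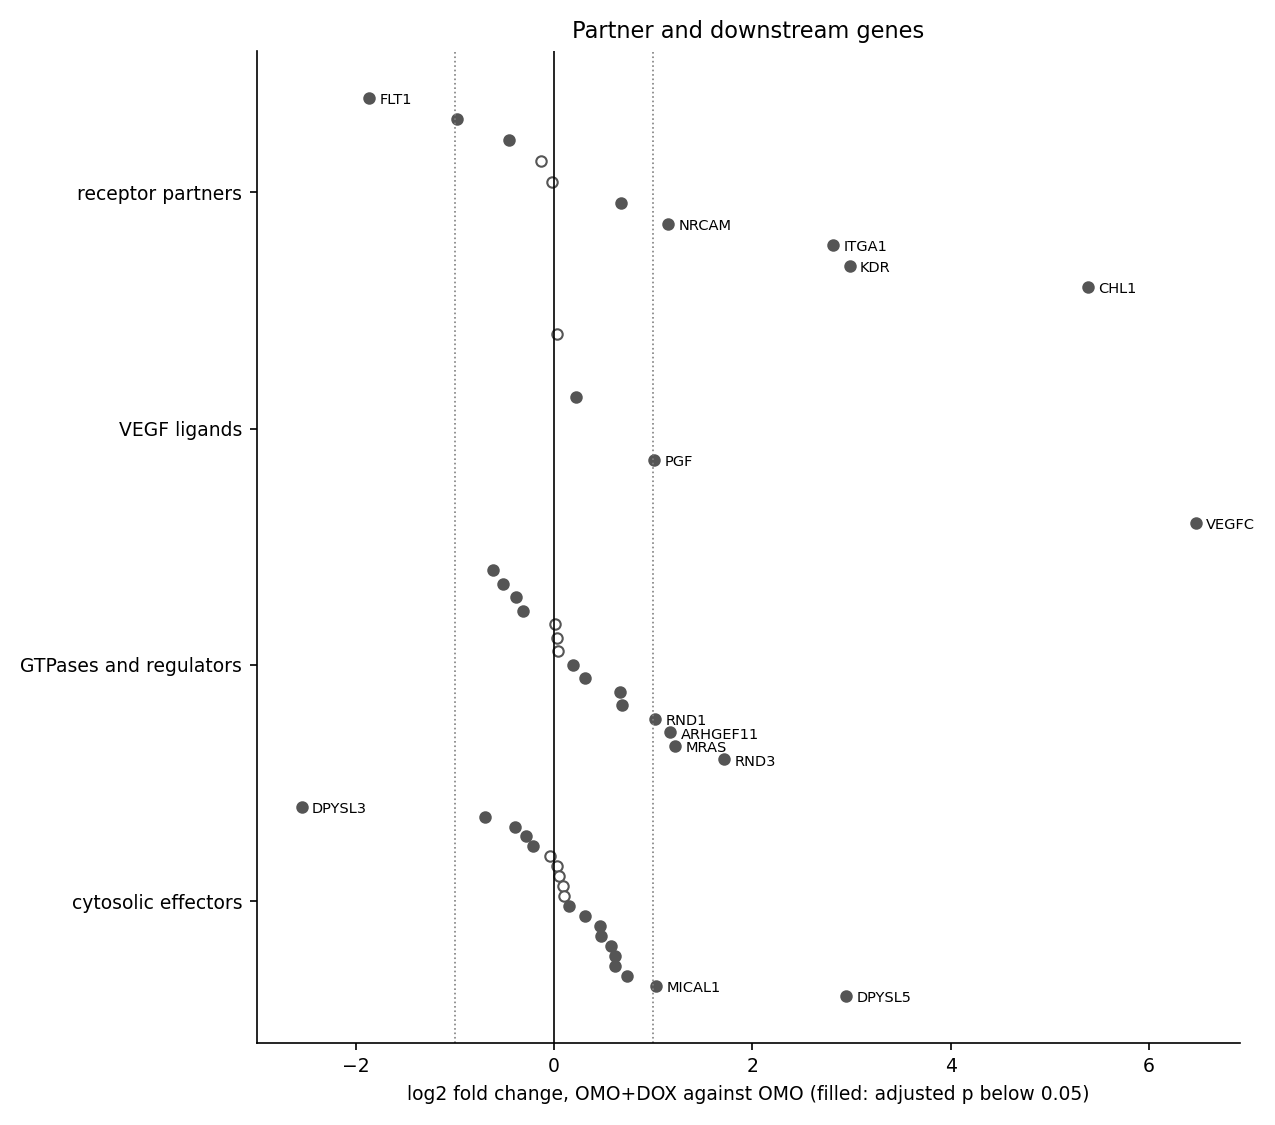
log2FC of OMO+DOX against OMO for the tested genes of the 4 partner and downstream lists, filled where the adjusted p is below 0.05, with dotted lines at -1 and 1. VEGFC (6.47) and CHL1 (5.38) lie farthest to the right, both resting on few counts in OMO, and DPYSL3 (-2.55) farthest to the left.

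One choice of filter decided the count of differentially expressed members. When more than 1 CPM was asked of more than 4 libraries, as the study's methods word it, SEMA3D, SEMA5B and PLXNA4 were no longer tested. Of the members, 2 were then differentially expressed, SEMA7A and NRP2. The study's results instead word the filter as at least 4 samples, and report 15222 gene loci and 1084 differentially expressed genes at an FDR below 0.01. The main fit here used that filter and also gave 15222 genes tested and 1084 differentially expressed, at an FDR below 0.001. With library size as the only scaling the median log2FC of all genes moved by 0.13, and PLXNB3 joined the 5.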

How the data were processed

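PolyA+ RNA of 8 D283-OMO libraries was sequenced as stranded pairs. After trimming (Trim Galore) and STAR alignment to the GENCODE 32 primary assembly (GRCh38), the authors deposited RSEM expected counts per gene, which are not normalized. Reads that match more than one gene are shared out by RSEM, and 11 members had a count that was not whole (any decimal part in the deposited value, tolerance 0) in at least 1 library. Whether counting used strand is not given in the sources used here. Symbols, coordinates and lengths came from GENCODE 29 on the same build, which holds 99.3% of the tested identifiers, and promoter windows from RefSeq.

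Expected counts were rounded and tested with edgeR 4.0.16 in R 4.3.3 (TMM, quasi-likelihood test, Benjamini-Hochberg over 15222 genes, no covariates, samples grouped by title). CPM use TMM-scaled library sizes. The SE is the absolute log2FC over the square root of F. Every member is named, and all libraries are given for members with an absolute log2FC above 1 or among the 3 highest per kb in a group. Of the partner lists, genes with a log2FC beyond 1 and an adjusted p below 0.05 are named, at most 5 a list. ITGB1, CNTN2, VEGFA, VEGFB and the 4 GTPases and regulators that fell were added after their values were seen. The members and lists were chosen with earlier results of these data known.

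Alternatives were other scalings, tests (DESeq2 1.42.0 among them), filters, thresholds, lengths, a replicate block and each replicate left out. Models were tested on simulated data. One marker gene of the lists is not reported here.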

Additional observations from a re-analysis of the deposited data

Results flagged for a closer look

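In 58 groups of 4 libraries (29 members in 2 groups), 1 library stood apart by Dixon's 95% criterion in 2, and chance gives about 2.9. PLXND1 was at 88.6 CPM in OMO+DOX replicate 2, with the other DOX libraries between 101 and 103 CPM. SEMA4F was at 11.4 CPM in OMO replicate 1, with the other untreated libraries all at 11.9 CPM.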

How the results depend on the processing

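Of 519 log2FC of members under alternatives, 483 kept their sign and side of an adjusted p of 0.05. With DESeq2's size factors or its Wald test, edgeR's likelihood ratio test, counts not rounded, the replicate block, filterByExpr or no filter, the differentially expressed members were the same 5. They were 2 when the CPM minimum had to be passed in over 4 libraries and 14 with an absolute log2FC above 1, and 5 or 6 with a library left out. Tested against an absolute log2FC of 1 (glmTreat), 7 members rose and 5 fell, with 1309 and 1142 of all genes. The same test gave 3 higher and 1 lower among receptor partners, 1 higher VEGF ligand, 3 higher and 0 lower among GTPases, and 1 higher and 1 lower among effectors. With that stricter filter, 3 receptor partners were higher and 562 genes in all were differentially expressed, against 2097 with no filter and 1649 with filterByExpr. With library size only, 3 effectors were lower, and 2 or 3 VEGF ligands were higher with a library left out. Higher members numbered 16 or 17 and lower members 9 or 10 with a library left out. PLXNB1 changed sign with library size only (log2FC 0.12), with the stricter filter (0.0035) and without OMO replicate 1 or 4 or OMO+DOX replicate 2 or 4, the range over all libraries left out being -0.061 to 0.013. The causes were not tested.

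Same-numbered libraries of both groups had deviations correlated at 0.157, 0.144, 0.241 and -0.176, and different-numbered ones between -0.290 and 0.346. With 4 libraries a group these values cannot decide whether the numbers paired the samples, and the study does not state it. With the replicate block, 5 members were differentially expressed, 17 were higher and 9 lower, and 1085 genes in all were differentially expressed.

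Levels per kb rest on the transcript length chosen. At this depth, the widest errors were those of SEMA3D, PLXNA4 and PLXNB3 (SE 0.30, 0.18 and 0.16), and SEMA3E and SEMA5A were not detectable.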
